A study of Mus musculus with 2 samples.

Results

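The cells described here were the dividing antigen-presenting cells of mouse adipose tissue, taken from cluster 10 of the deposited clustering at resolution 0.5. A cell of that cluster was included when its raw unique molecular identifiers (UMIs) for Cst3, which encodes cystatin C, and H2-Aa, an MHC class II chain, summed to at least 50. The rule found 160 cells among the 10017 clustered cells, 99 of them in the chow library and 61 in the ketogenic library. The threshold fell in a sparse stretch of both libraries. The median sum was 237 UMIs in the chow cells included and 6 in the other chow cells of the cluster, and 324 and 5 in the ketogenic library. Just outside it lay cells with 48 and 40 UMIs under chow and with 24 and 16 under the ketogenic diet, and just inside lay cells with 50 and 57 UMIs in each library. Because the rule used the clustering and these 2 genes, the levels that chose the cells are given as a description only.

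The series holds 2 single-cell libraries made with 10x Genomics chemistry from CD45+ cells of adipose tissue, with tissue residence defined by intravenous labelling. Both come from adult C57BL/6 mice of wt genotype; 1 group was kept on chow as the control and the other was fed a ketogenic diet (KD) for 1 week. Each diet is represented by 1 library, the number of pooled mice and their sex are not given in the labels, and no test between diets was possible. All intervals below are 95% intervals that cover counting error only, not differences between mice, and diet cannot be told apart from any other difference between the libraries. The chow library held 4545 cells with a median of 3469 UMIs and the ketogenic library 5614 cells with a median of 3461.5. The 2 libraries shared 41 cell barcodes, 1 of which belonged to a cell described here. No doublet caller was run, and removal of doublets before deposit is not given in the sources used here.

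Dendritic cells take up antigen, load peptides on MHC molecules and present them to T cells. Conventional dendritic cells come in 2 main types: cDC1, which depend on Irf8 and cross-present antigen to CD8 T cells, and cDC2, which present mainly to CD4 T cells. Both arise from bone marrow precursors that keep dividing after they enter tissues, and a dividing cell copies its DNA in S phase with the replication machinery before G2/M genes build the spindle and separate the chromosomes.

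The cells carried both features of the label. Mki67, a nuclear protein of dividing cells, stood at 298 CPM (a gene's UMIs scaled to the summed UMIs of the cells in question, per library) under chow and 221 under the ketogenic diet. Top2a, the topoisomerase that untangles chromosomes, stood at 438 and 391 CPM, and Birc5, the survivin subunit of the chromosomal passenger complex, at 486 and 430. In cluster 6, a cDC1-like cluster whose cells carry Xcr1 and Clec9a, Mki67 was at 6.97 and 10.9 CPM. In cluster 5, a cDC2-like cluster that carries Cd209a and Clec10a and also holds some cells with plasmacytoid dendritic cell markers, it was at 5.89 and 6.88. The other cells of cluster 10, which were chosen out by the same rule, had a like level of Mki67 (324 and 316 CPM) but H2-Aa at 820 and 236 CPM against 10012 and 11138 in the cells described here. Cd74, the invariant chain that escorts MHC class II, reached 24957 and 30582 CPM. Every chow cell and 58 of 61 ketogenic cells held at least 2 UMIs of Mki67, Top2a and Birc5 together. After each cell was thinned to 2000 UMIs, the shares were 68.7% and 52.5%. In cluster 0, an ILC2-like cluster, 0.585% and 0.305% of the cells reached that number without thinning, at median depths of 2610.5 and 3133 UMIs. The cells described here were deep, with a median of 10970 UMIs under chow and 14455 under the ketogenic diet, against 7906 and 9922 in cluster 6 and 6352.5 and 7722.5 in cluster 5.

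Nearly all of the cells scored highest for the markers of cDC1 or of cDC2. Each was assigned to whichever of the cDC1, cDC2, macrophage, mature dendritic cell and B cell lists had the highest score relative to the cluster that defines it. This rule was chosen after the data were seen. It set no minimum score and had no list for monocytes or cluster 8, so every cell received a class. The cDC2 list is not confined to cDC2: under chow it summed to 3600 CPM in cluster 8 and 3872 in cluster 3, against 7760 in cluster 5. Under chow 56 of 99 cells were cDC1-marked, 42 were cDC2-marked and 1 was macrophage-marked. Under the ketogenic diet 37 of 61 were cDC1-marked, 22 were cDC2-marked and 2 carried B cell transcripts, with 72 and 67 UMIs of the B cell list. No cell was assigned to the mature dendritic cell list. The cDC1-marked share of chow cells was 56.6% (46.2 to 66.5) and that of ketogenic cells 60.7% (47.3 to 72.9), which gives a ratio of 1.07 (0.688 to 1.65, counting error only). The separation was wider in the ketogenic library: 16 of 98 dendritic-marked chow cells and 0 of 59 ketogenic cells had cDC1 and cDC2 scores within 2-fold of each other.

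**Figure D1:**
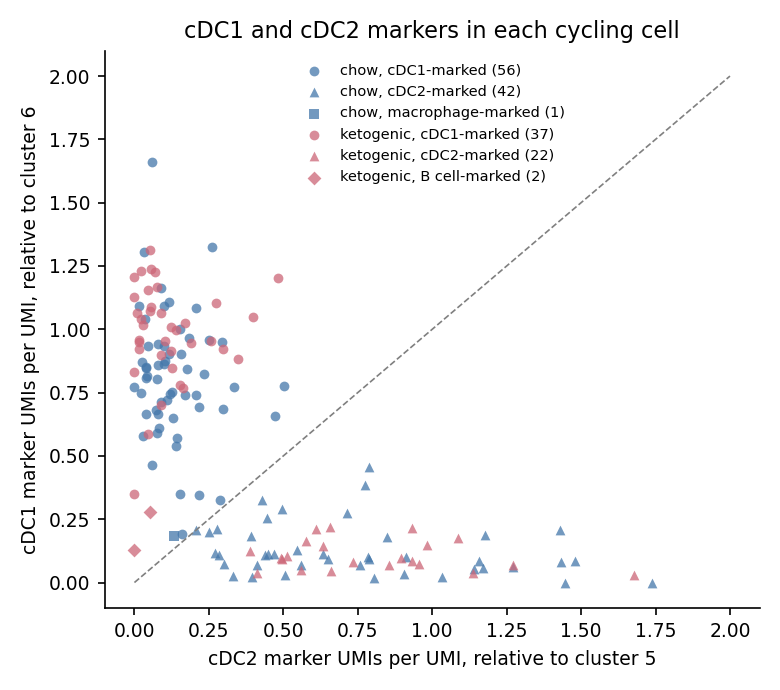
Each point is 1 cycling antigen-presenting cell, coloured by diet and shaped by marker class; the x axis is its cDC2 marker UMIs per UMI relative to cluster 5 and the y axis its cDC1 marker UMIs per UMI relative to cluster 6 (both ratios without unit), and the dashed line marks equal scores. Most of the cells lie along the 2 axes, with 56 and 37 cDC1-marked and 42 and 22 cDC2-marked under chow and ketogenic diet.

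Single markers showed the same 2 populations. Xcr1, the chemokine receptor of cDC1, was at 83.9 and 134 CPM in the cDC1-marked cells of the chow and ketogenic libraries and at 2.05 and 7.09 in the cDC2-marked cells. Clec9a, which senses dead cells, was at 96.7 and 85.3 CPM in the former and at 4.10 and 0 in the latter. Cd209a, a C-type lectin of cDC2, was at 496 and 716 CPM in cDC2-marked cells and at 17.7 and 1.94 in cDC1-marked cells. The lectin Clec10a was at 209 and 298 CPM against 4.84 and 3.88. These genes are among the lists that set the classes. The plasmacytoid list summed to 297 and 307 CPM, against 205 and 153 in cluster 6 and 1194 and 1193 in cluster 5. Most of it was Bst2 (118 and 130 CPM), Pltp (95.9 and 42.9) and Tcf4 (52.0 and 51.5), while Siglech had 1 and 2 UMIs and Cox6a2 1 and 0, and cluster 5 held Siglech at 60.8 and 87.9 CPM. The transcription factor Irf8 stood at 714 and 1311 CPM in cDC1-marked cells and 6.15 and 10.6 in cDC2-marked cells. Over all cells described here, Irf8 had 447 and 685 UMIs, 400 and 840 CPM, a ratio of 2.10 (1.86 to 2.37). Without the cells nearest cluster 8, described next, the ratio was 1.74 (1.55 to 1.97), and in non-cycling cluster 6 it was also higher under the ketogenic diet, 1176 against 727 CPM.

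A second assignment, by correlation with the mean profiles of clusters 3, 5, 6, 8 and 12 without cell cycle genes, placed 53 chow cells nearest cluster 6, 30 nearest cluster 5 and 16 nearest cluster 8. Of the ketogenic cells it placed 39 nearest cluster 6, 20 nearest cluster 5 and 2 nearest cluster 8. No cell was nearest cluster 3, which is macrophage-like with high C1qa, C1qb and Adgre1, or cluster 12, which is mature DC-like. Of the 93 cDC1-marked cells 90 were nearest cluster 6, and of the 64 cDC2-marked cells 49 were nearest cluster 5. Cluster 8 stays unnamed here; it is rich in Retnla, Lyz2, Fn1 and Ear2, and it held 362 cells under chow and 47 under the ketogenic diet. Of the 18 cells nearest cluster 8, 13 under chow and both under the ketogenic diet were cDC2-marked. Because 16 chow cells and 2 ketogenic cells lie there, values without these 18 cells are given below where a named gene's 2-fold difference or a list's direction depends on them.

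The cycling cells were compared with clusters 5 and 6, called non-cycling here, as a description only, since the clustering used all genes. In those clusters 2.03% to 5.35% of the cells held at least 2 UMIs of Mki67, Top2a and Birc5. Of 6931 genes with at least 100 UMIs, 4.83% were 2-fold higher in the cycling cells in both libraries and 0.794% were 2-fold lower. Genes were ranked by the smaller in size of the 2 libraries' log2 ratios, so a gene ranked lower can have the larger ratio in 1 library. The highest by this rule was Nusap1, which bundles spindle microtubules, at 181 against 1.72 CPM under chow and 202 against 1.60 under the ketogenic diet. It was followed by Kif11, Pbk, Mxd3, Prc1, Ccna2, Hmmr, Hist1h2ap, Nuf2 and Ndc80; Kif11 and Prc1 act on the spindle, Nuf2 and Ndc80 at the kinetochore, and Ccna2 is a cyclin. The lowest were Cox6a2, D13Ertd608e, Siglech, Klk1, Ctsl, Ccl17, Ccr9, Slfn5, Cd209d and Apod, among them the plasmacytoid genes held by cluster 5. Mitotic kinases and cyclins were 5.49 and 4.81 higher (median log2 ratio, chow and ketogenic) in cDC1-marked cells than in cluster 6, and 5.55 and 4.88 higher in cDC2-marked cells than in cluster 5. Replication genes were 1.71 and 2.47 higher in the former and 2.36 and 2.65 higher in the latter. The median of the MHC class II list, which holds H2-Aa, a gene of the rule, was −0.36 and −0.51 in cDC1-marked cells against cluster 6 and −0.54 and −0.15 in cDC2-marked cells against cluster 5.

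Against the other cells of cluster 10, which divide as well but fell under the Cst3 plus H2-Aa threshold, 7.83% of 3397 genes were 2-fold higher in both libraries and 6.01% were lower. The highest was Plbd1, a phospholipase gene of myeloid cells, at 422 against 7.62 CPM under chow and 652 against 8.99 under the ketogenic diet, followed by Mnda, Lmo1, Tnni2, Ccnd1, Gatm, Rab32, Sept3, Ifi205 and Xcr1. The lowest were Nrgn, Cd28, Klra7, Cd247, Klrg1, Gimap9, Gata3, Icos, Hsd11b1 and Sh2d1a. Cd28, Cd247 and Icos are receptor genes of T cells, and Klra7 is an NK cell receptor.

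The cells made up 2.22% of the clustered cells under chow (99 of 4458, 1.81 to 2.70) and 1.10% under the ketogenic diet (61 of 5559, 0.840 to 1.41). The ratio of the shares, ketogenic over chow, was 0.494 (0.353 to 0.687). The other cells of cluster 10 went the other way, with 43 cells (0.965%) and 93 cells (1.67%), a ratio of 1.73 (1.20 to 2.55). Within the antigen-presenting compartment the answer depended on the denominator. Over the cycling cells plus clusters 3, 5, 6, 8 and 12 the share was 4.87% (3.98 to 5.90) and 6.01% (4.63 to 7.65), a ratio of 1.23 (0.881 to 1.71). Clusters 3 and 8 made up 60.1% of that denominator under chow and 18.9% under the ketogenic diet. Over clusters 5, 6 and 12 with the cycling cells the share was 12.2% and 7.41%, a ratio of 0.606 (0.433 to 0.843). Within each dendritic cell type the ratio was also below 1: cDC1-marked cells were 56 of 363 cells with cluster 6 (15.4%) and 37 of 392 (9.44%), a ratio of 0.612 (0.393 to 0.943), and cDC2-marked cells were 42 of 386 with cluster 5 (10.9%) and 22 of 380 (5.79%), a ratio of 0.532 (0.302 to 0.912). With the cells nearest cluster 8 left out, the cDC2-marked cells were 29 of 373 and 20 of 378, a ratio of 0.681 whose counting interval included 1 (0.365 to 1.25). The cDC1-marked ratio was then 0.631 (0.404 to 0.977), and that over clusters 5, 6 and 12 was 0.687 (0.484 to 0.971). Outside cluster 10, a further 33 chow cells (0.740%) and 35 ketogenic cells (0.630%) carried at least 50 UMIs of Cst3 plus H2-Aa and at least 2 UMIs of Mki67, Top2a and Birc5. Cluster 6 held 11 of these under chow (3.58% of its 307 cells) and 19 under the ketogenic diet (5.35% of 355). That ratio was 1.49 (0.676 to 3.47), above 1. Cluster 5 held 7 of 344 cells (2.03%) and 8 of 358 (2.23%), a ratio of 1.10 (0.348 to 3.56). The shares above count these cells in the denominators only.

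**Figure D2:**
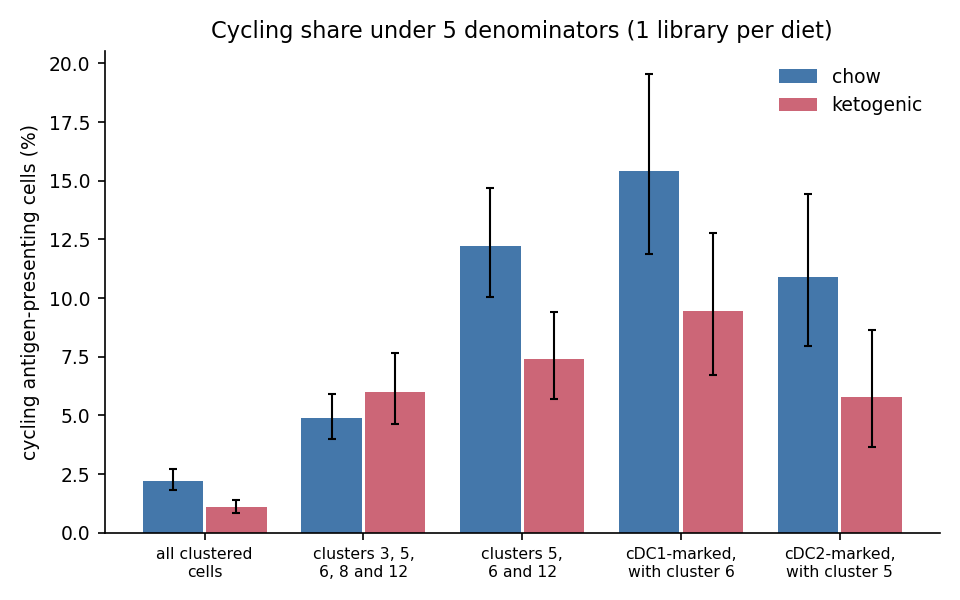
The y axis is the share of cycling antigen-presenting cells in percent, for 5 denominators named along the x axis, with bars from 0, chow in blue and ketogenic in red, and exact binomial 95% intervals. The ketogenic share is lower over all clustered cells and over the dendritic cell clusters but not where clusters 3 and 8 are in the denominator (6.01% against 4.87%).

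The position of a cell between S phase and G2/M was read from the UMIs of an S phase list and a G2/M list. The S phase list had a median of 18.0 UMIs per 10000 under chow (range 1.53 to 67.3) and 24.2 under the ketogenic diet (1.26 to 104). The G2/M list had a median of 97.7 (33.9 to 219) and 84.0 (26.3 to 194). The ranges of the libraries overlap almost entirely. After thinning to 2000 UMIs the medians were 4 and 5 UMIs for S and 18 and 16 for G2/M. Summed over all cells, the S phase list was at 2112 CPM in chow cells and 3081 CPM in ketogenic cells, a ratio of 1.46 (1.38 to 1.54), and the G2/M list at 9505 and 9033, a ratio of 0.95 (0.922 to 0.979). In the cDC1-marked cells the S ratio was 1.52 and the G2/M ratio 0.873, in the cDC2-marked cells 1.27 and 1.07. The other cells of cluster 10 gave 1.11 and 0.885. Counted by cell, 63 of 99 chow cells (63.6%, 53.4 to 73.1) and 31 of 61 ketogenic cells (50.8%, 37.7 to 63.9) lay on the G2/M side, a ratio of 0.799 (0.502 to 1.25, counting error only). The class is a cut in a continuous range, and 20 chow and 17 ketogenic cells lay within 0.5 log2 of it.

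**Figure D3:**
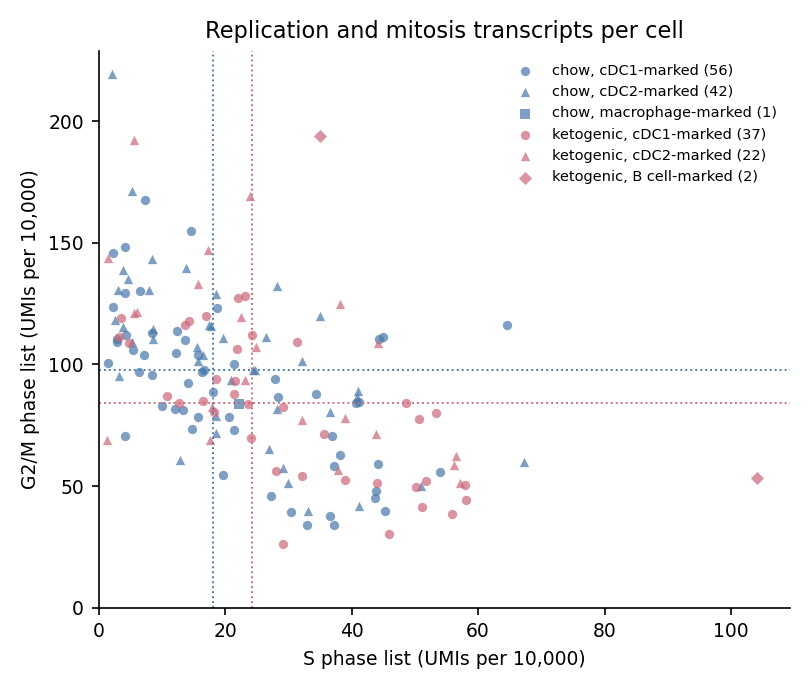
Each point is 1 cell; the x axis gives UMIs of the S phase list and the y axis UMIs of the G2/M list, both per 10000 UMIs of the cell, with dotted lines at each library's median (18.0 and 24.2 for S, 97.7 and 84.0 for G2/M). Cells with many S phase UMIs tend to hold few G2/M UMIs, and the highest S value, 104, belongs to a B cell-marked ketogenic cell.

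Replication genes were mostly higher under the ketogenic diet. For comparison, of 6610 genes with at least 20 UMIs over the cells of both libraries, 49% were higher and 51% lower under the ketogenic diet, and 8.23% were past 2-fold, 2.77% higher and 5.46% lower. Of 31 replication licensing and fork genes with at least 20 UMIs (33 on the list), 27 were higher, with a median log2 ratio of 0.71; 8 were 2-fold higher and 1, Gins1, was 2-fold lower. Mcm7, a subunit of the replicative helicase, had 74 and 112 UMIs, 66.3 and 137 CPM, a ratio of 2.07 (1.53 to 2.82). The clamp loader subunit Rfc2 was at 56.4 and 118 CPM and its partner Rfc5 at 36.7 and 78.5. Prim1, the catalytic primase subunit, was at 19.7 and 62.5 CPM, a log2 ratio of 1.65 (log2 ratios have 0.5 added to each count), and Mcm2 at 20.6 and 52.7, a log2 ratio of 1.34. Rpa2, a subunit of the single-strand binding complex, Pola1, the catalytic subunit of DNA polymerase alpha, and Dscc1, of the cohesion clamp loader, were the other members past 2-fold. Pcna, the sliding clamp, was less far apart at 190 and 239 CPM. Gins1, of the helicase complex, went from 55.5 to 27.0 CPM. The same list had a median of 0.05 in cluster 6, 0.29 in cluster 5 and 0.24 in the other cells of cluster 10. The cDC1-marked cells had a median of 0.70, with 26 of 29 measured genes higher, 10 past 2-fold higher and 0 lower. The cDC2-marked cells had 0.32, with 17 of 23 higher, 4 past 2-fold higher and 3 lower. Over all genes with at least 20 UMIs in the class, 52.1% were higher and 8.51% past 2-fold in the cDC1-marked cells and 47.5% and 9.71% in the cDC2-marked cells. Without the cells nearest cluster 8 the list stood at 0.70 with 28 of 31 higher; Gins1 (−0.99), Rfc2 (just under 1) and Pola1 (0.79) were then no longer past 2-fold, while Fen1 and Chaf1b were, so that 8 were again 2-fold higher.

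The promoters of 2 of the replication genes are shown because the list was mostly higher and many of its members hold a word of the E2F family, the transcription factors that switch on S phase genes. They run 5′ to 3′ on the gene's strand, from RefSeq on GRCm38.p6 (250 bases before to 50 after the start), with any E2F word (TTTCCCGC, TTTCGCGC, TTTGCCGC or TTTGGCGC, searched on both strands) in capitals. The Mcm7 promoter, 1 of 2 in the table for that gene, is chr5:138171834-138172133 (minus strand) and that of Pola1 chrX:93632106-93632405 (minus strand).
Mcm7: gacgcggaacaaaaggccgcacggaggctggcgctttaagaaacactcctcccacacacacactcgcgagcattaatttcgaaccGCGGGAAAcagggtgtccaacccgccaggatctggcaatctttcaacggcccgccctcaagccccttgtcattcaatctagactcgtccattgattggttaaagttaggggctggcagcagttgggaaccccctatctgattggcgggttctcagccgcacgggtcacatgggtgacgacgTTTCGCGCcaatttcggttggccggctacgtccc
Pola1: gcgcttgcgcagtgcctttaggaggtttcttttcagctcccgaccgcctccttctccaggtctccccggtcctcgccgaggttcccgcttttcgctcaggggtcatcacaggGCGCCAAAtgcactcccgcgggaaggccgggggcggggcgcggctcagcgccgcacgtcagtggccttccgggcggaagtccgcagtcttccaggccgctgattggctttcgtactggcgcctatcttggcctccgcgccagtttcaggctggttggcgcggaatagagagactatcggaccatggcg
An E2F word stood in 14 of 29 promoters of the list (48.3%, 25 of 33 genes matched, some with more than 1 promoter), against 744 of 32851 promoters in all (2.26%). Of the 8 replication genes that were 2-fold higher, 6 had a promoter in the table and 2 held such a word. A match is a description of these letters and not of binding.

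Other S phase groups leaned the same way. Nucleotide synthesis had a median log2 ratio of 0.44 with 11 of 14 genes higher and none past 2-fold: Rrm2, which makes deoxynucleotides, was at 153 and 244 CPM, Tyms, thymidylate synthase, at 79.7 and 130, Tk1, thymidine kinase, at 89.6 and 148, and Dctpp1 at 171 and 310. DNA methylation and chromatin assembly genes had a median of 0.27 with 15 of 18 higher; the histone chaperone Asf1b was at 97.7 and 175 CPM. G1 cyclins and E2F factors had a median of 0.55 with 13 of 16 higher, and the S phase cyclin Ccne2 had 19 and 35 UMIs, a log2 ratio of 1.32. Of the histone list, 8 of 12 were higher (median 0.21), while Hist1h2ap, a replication-dependent histone transcript, was at 848 and 607 CPM. CDK inhibitors split evenly, with 7 of 14 higher and a median of 0.04 (−0.01 without the cells nearest cluster 8). In cluster 5, cluster 6 and the other cells of cluster 10, the nucleotide synthesis list had medians of 0.37, 0.23 and 0.25. In the same order the DNA methylation and chromatin list had 0.14, −0.01 and −0.10. The G1 list had 0.14, 0.24 and 0.17, and the histone list 0.03, 0.38 and −0.35.

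Mitotic groups did not lean with them. Mitotic kinases and cyclins had a median log2 ratio of −0.00 with 9 of 19 higher, spindle, kinetochore and cytokinesis genes −0.14 with 17 of 39 higher, chromosome condensation genes −0.03 with 5 of 13 higher, and the anaphase-promoting complex and its targets −0.17 with 2 of 9 higher. Cdk1, the mitotic kinase, was at 122 and 164 CPM, its regulator Cks1b at 444 and 434, and the mitotic cyclin Ccnb1 at 87.8 and 71.1. Hmgb2, a chromatin protein of dividing cells, was at 2457 and 2524 CPM. Aspm, a spindle pole protein, was at 60.0 and 23.3, a log2 ratio of −1.34, and it was also lower in the other cells of cluster 10 (−1.46). Ube2c, the E2 enzyme of the anaphase-promoting complex, was at 530 and 294 CPM (−0.85), and the hyaluronan receptor Hmmr, which acts at the spindle, at a log2 ratio of −0.84.

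A pair of these promoters is shown because mitotic genes are known to share a CHR element and CCAAT boxes; capitals mark TTTGAA and CCAAT on either strand. They are Hmgb2 at chr8:57511593-57511892 (plus strand) and Cks1b at chr3:89418242-89418541 (minus strand), again 250 bases before to 50 after the start.
Hmgb2: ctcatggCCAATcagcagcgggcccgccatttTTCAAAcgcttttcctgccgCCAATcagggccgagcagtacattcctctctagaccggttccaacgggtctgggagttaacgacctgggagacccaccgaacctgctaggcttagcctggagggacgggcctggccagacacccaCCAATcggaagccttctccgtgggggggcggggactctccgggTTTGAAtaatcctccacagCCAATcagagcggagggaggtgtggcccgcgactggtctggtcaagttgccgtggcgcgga
Cks1b: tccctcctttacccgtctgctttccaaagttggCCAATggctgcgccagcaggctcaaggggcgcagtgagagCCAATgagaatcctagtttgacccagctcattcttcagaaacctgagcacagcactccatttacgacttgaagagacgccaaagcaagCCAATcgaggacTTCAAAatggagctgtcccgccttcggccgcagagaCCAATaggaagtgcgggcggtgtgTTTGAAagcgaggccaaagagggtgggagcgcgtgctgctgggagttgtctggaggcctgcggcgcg
TTTGAA stood in 46 of 75 promoters of the mitotic lists (61.3%, 69 of 82 genes matched), against 17.9% of all promoters, CCAAT in 55 of 75 (73.3%) against 37.4%, and both in 38 of 75 (50.7%) against 6.95%. TTTGAA is a short word, and matches say nothing of binding.

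Over all the cells, none of the 14 MHC class II and 13 class I genes with at least 20 UMIs was past 2-fold between the libraries, while some maturation, receptor and progenitor genes were. By class, 3 class II genes were past 2-fold higher in the cDC2-marked cells (H2-Oa, H2-Ob and Ciita), and 1, H2-Ob, was lower in the cDC1-marked cells, against 9.71% and 8.51% of all genes past 2-fold in these classes. The MHC class II list had a median log2 ratio of 0.15 with 10 of 14 higher, 0.43 in the cDC2-marked cells and −0.06 in the cDC1-marked cells. H2-Ab1, a class II beta chain, was at 10835 and 12997 CPM and H2-Eb1 at 5959 and 6218. The MHC class I list had 11 of 13 higher (median 0.21); Psmb8, an immunoproteasome subunit, was at 681 and 999 CPM and H2-D1 at 1684 and 1952. Maturation genes had a median of 0.14 with 7 of 11 higher, or −0.00 with 5 of 11 higher without the cells nearest cluster 8, and those past 2-fold were the chemokine gene Ccl17, with 58 and 5 UMIs (−2.96), Ccl5 and Ccr7, the receptor for migration to lymph nodes, with 7 and 14 UMIs. Growth factor receptors had a median of −0.38 with 3 of 15 higher; Flt3, the receptor of the main dendritic cell growth factor, was at 69.9 and 117 CPM (0.74), while Csf1r, the macrophage growth factor receptor, was at 44.8 and 9.81 (−2.12). Of the 50 chow Csf1r UMIs, 40 lay in the 16 cells nearest cluster 8, and in the other cells it was at 11.1 and 10.0 CPM; the list median without those cells was −0.13 with 3 of 15 higher. Progenitor genes had a median of −0.08 with 5 of 17 higher, among them Irf8 (1.07, or 0.80 without the cells nearest cluster 8), while Irf4, a cDC2 factor, was at 56.4 and 15.9 (−1.78).

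Between the libraries, 2300 genes had at least 100 UMIs; their median log2 ratio was 0.01 and the central 90% ran from −0.70 to 0.64. At all higher were 51.8% and lower 48.2%. Past 2-fold were 70 genes (3.04%), 21 higher (0.913%) and 49 lower (2.13%). Without the cells with at least 3 UMIs of T or B cell markers, 7 were higher and 44 lower of 1825 genes. Fn1, fibronectin (chr1:71585520-71653200, minus strand, mm10), was the lowest, with 503 UMIs in 59 chow cells and 22 UMIs in 9 ketogenic cells. Its level was 16.7-fold lower under the ketogenic diet (10.9 to 26.9). Most of that came from few cells: the 16 chow cells nearest cluster 8 held 431 of the 503 UMIs, and without the cells nearest cluster 8 the counts were 72 and 7, a log2 ratio of −3.10. Gda, guanine deaminase, had 95 and 9 UMIs (−2.88). The metallothioneins Mt2 (chr8:94172664-94173568) and Mt1 (chr8:94179082-94180327), which bind zinc and copper, had 160 and 17 (−2.74) and 634 and 101 UMIs (−2.19). Mt1 was detected in 86 of 99 chow cells and 27 of 61 ketogenic cells. Tppp3, a tubulin-binding protein, had 550 and 76 UMIs (−2.39). The chemokine Ccl6 had 1183 and 235 UMIs, in 96 and 41 cells (−1.88).

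The rest of the lowest 10 were Lyz1, a lysozyme (346 and 56 UMIs, −2.16), Ear2, an eosinophil-associated ribonuclease (173 and 31, −2.01), the cytokine Il6 (86 and 16, −1.94) and Metrnl (141 and 29, −1.81). A single chow cell held 46.0% of the Lyz1 UMIs, and without it the log2 ratio was −1.09. The cells nearest cluster 8 held 85.0% of Fn1, 82.6% of Lyz1, 79.9% of Ear2, 66.3% of Gda, 65.5% of Mt2, 64.7% of Il6, 48.0% of Ccl6, 43.5% of Mt1, 32.4% of Metrnl and 31.6% of Tppp3 UMIs. Without them all 10 were still lower, Tppp3 at −2.19, Mt1 at −2.52, Ccl6 at −1.37, Ear2 at −1.41 and Lyz1 at −0.48, and the number of genes past 2-fold was 38 of 2034 instead of 70. The interval of the Lyz1 ratio then included 1 (0.422 to 1.18). In clusters 6 and 5, 8 and 9 of the 10 were lower, 5 and 3 of them by 2-fold or more, and Lyz1 was lower in neither. Over all genes 5.68% and 6.53% were past 2-fold in these clusters. In ILC2-like cluster 0, Fn1 was at 67.7 and 5.51 CPM, Tppp3 at 29.8 and 4.82, and Ccl6 at 201 and 27.1, while Il6 and Metrnl were not lower. Fn1, Tppp3, Mt1 and Ccl6 were lower in all 12 other clusters. The share of such UMIs that is RNA shed by other cells was not tested. In 1 alternative an assumed 10% of the summed UMIs was removed, in proportion to the profile of all cells of the library. Fn1 was then at −3.98 and Ccl6 at −1.70, but the 10% was not measured.

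Among the highest 10, Hspa1a, an inducible heat shock protein (chr17:34969190-34972156, minus strand), had 56 UMIs in 27 chow cells and 189 UMIs in 33 ketogenic cells, a ratio of 4.62 (3.41 to 6.34). It was higher in all 12 other clusters as well. Cd7, a surface protein of cDC2 and lymphocytes (38 and 83 UMIs, 1.57), Ly6c2, a monocyte antigen (39 and 81, 1.5), Cnp (42 and 82, 1.41), the spindle gene Haus4 (41 and 69, 1.20), the glycosyltransferase Gcnt2 (71 and 117, 1.17) and Ccl5 (200 and 325, 1.15) followed. The list closed with the mitochondrial aminotransferase Got2 (63 and 102, 1.14), the replication factor Rpa2 (43 and 68, 1.11) and Snx2, a sorting nexin (63 and 99, 1.10). A few cells carried some of them: without its top cell Cd7 was at 1.02, Ly6c2 at 0.98 and Ccl5 at 0.62. Without the cells that held at least 3 UMIs of T or B cell markers, Ccl5 was at 0.24 and Gcnt2 at 0.67. Leaving out the cells nearest cluster 8 put Gcnt2 at 0.91 and Got2 at 0.97. In clusters 5 and 6 all 10 genes were higher, with 2 past 2-fold in cluster 6 and 3 in cluster 5. Over all genes 56.9% were higher and 5.68% past 2-fold in cluster 6, and 54.5% and 6.53% in cluster 5.

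**Figure D4:**
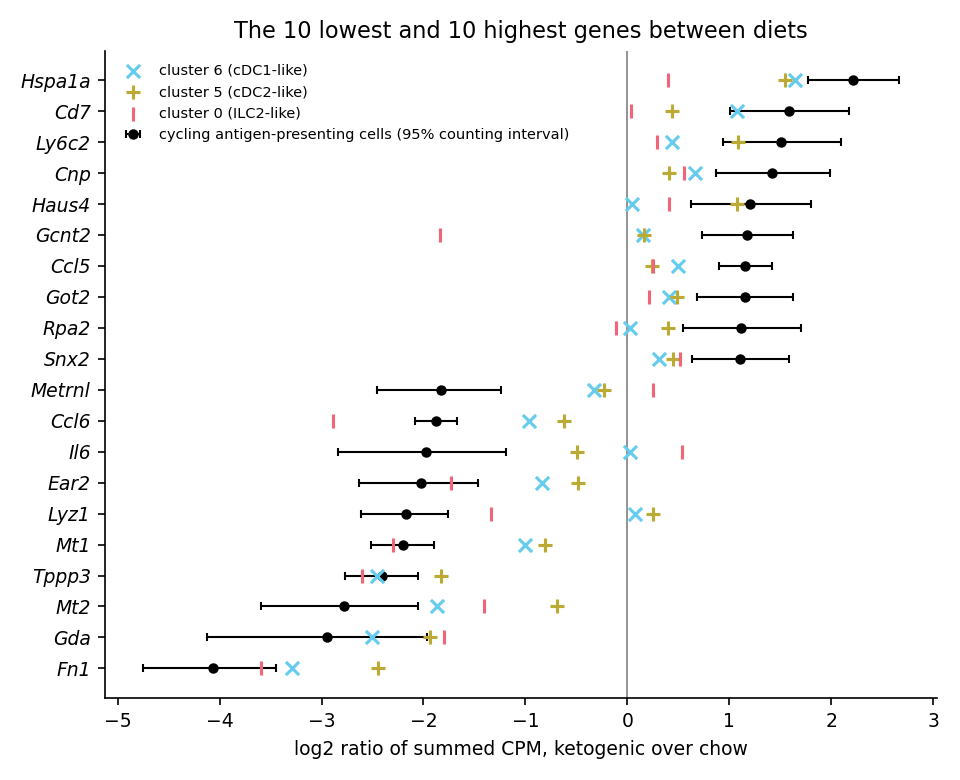
The x axis is the log2 ratio of summed CPM, ketogenic over chow; black points are the cycling antigen-presenting cells with 95% counting intervals, and coloured marks are clusters 6, 5 and 0. The lowest genes run from −1.81 for Metrnl to −4.03 for Fn1 and the highest from 1.10 for Snx2 to 2.20 for Hspa1a, and Fn1 and Tppp3 are also far to the left in clusters 6, 5 and 0.

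Metabolic lists differed in direction. Ketone body genes, which a ketogenic diet engages in many tissues, were scarcely measured: 3 of 10 passed 20 UMIs, and Oxct1, the enzyme that lets a cell use ketone bodies, was at 89.6 and 92.0 CPM. Glycolysis had a median of 0.49 with 9 of 13 higher; Gapdh was at 710 and 1046 CPM, the lactate dehydrogenase Ldha at 314 and 511 and the pyruvate kinase Pkm at 234 and 342. Pfkl, a phosphofructokinase, was the list's member past 2-fold (9 and 15 UMIs). The glycolysis list was also higher in cluster 6 (0.47, 11 of 15 higher), cluster 5 (0.33, 10 of 14) and the other cells of cluster 10 (0.45, 9 of 12). Its median was 0.69 in the cDC1-marked cells and 0.03 in the cDC2-marked cells. Fatty acid oxidation and lipid uptake had a median of −0.15 with 7 of 16 higher; Cpt1a, which carries fatty acids into mitochondria, had 45 and 9 UMIs (−1.81), Acadm, an acyl-CoA dehydrogenase, 46 and 16 (−1.04), Cd36, a fatty acid transporter, 80 and 27 (−1.10), and Lpl, lipoprotein lipase, 53 and 5 (−2.83). Without the cells nearest cluster 8 the list median was 0.12 with 9 of 16 higher; Cpt1a and Cd36 were still past 2-fold lower, but Acadm was at −0.85 and Lpl had 6 and 4 UMIs. Cholesterol synthesis and efflux had a median of −0.81 with 2 of 11 higher: Hmgcs1, an early enzyme of the pathway, was at 43.9 and 17.2 CPM (−1.32), Cyp51 at 41.2 and 18.4 (−1.13) and Apoe at 74.4 and 25.8 (log2 ratio −1.5). In non-cycling cluster 5 that list was also low (−0.97), in cluster 6 it was not (0.08). Its median was −0.85 without the cells nearest cluster 8 and −1.40 without the cells with at least 3 UMIs of T or B cell markers.

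Genes of alternative activation and monocytes had a median of −1.16 with 3 of 12 higher and 7 past 2-fold lower. Retnla, a marker of alternatively activated macrophages, was at 2233 and 673 CPM (−1.73), and 2127 of its 2492 chow UMIs lay in the 16 cells nearest cluster 8 and 507 of its 549 ketogenic UMIs in the 2 such cells. Outside them it was at 409 and 72.1 CPM in the cDC2-marked cells and at 403 and 40.7 in the cDC1-marked cells. Lyz2 was at 2611 and 1122 CPM (−1.22) and Mrc1 had 64 and 5 UMIs (−3.10). Without the cells nearest cluster 8 the list median was −0.36, 3 of 12 genes were higher, and Lyz2 was at 1090 and 934 CPM (−0.22). In those cells under chow, Retnla was at 9886 CPM against 405 in the other chow cells and 52.7 in the other ketogenic cells. The S100, ferritin and metallothionein list had a median of −0.48 with 2 of 12 higher; Crip1, a LIM protein, was at 14836 and 9699 CPM (−0.61). The interferon list had a median of −0.17, with Ifi27l2a at 337 and 118 CPM (−1.51) and Cxcl10 at 72.6 and 15.9 (−2.14), the 2 members of the list past 2-fold. Ifi27l2a was at −1.38 and Cxcl10 at −0.72 without the cells nearest cluster 8. In the immediate early and heat shock list, which tracks handling stress as well as stimulation, 6 of 20 were higher; Egr1 was at 404 and 161 CPM (−1.33, or −0.92 without the cells nearest cluster 8), opposite in direction to Hspa1a.

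**Figure D5:**
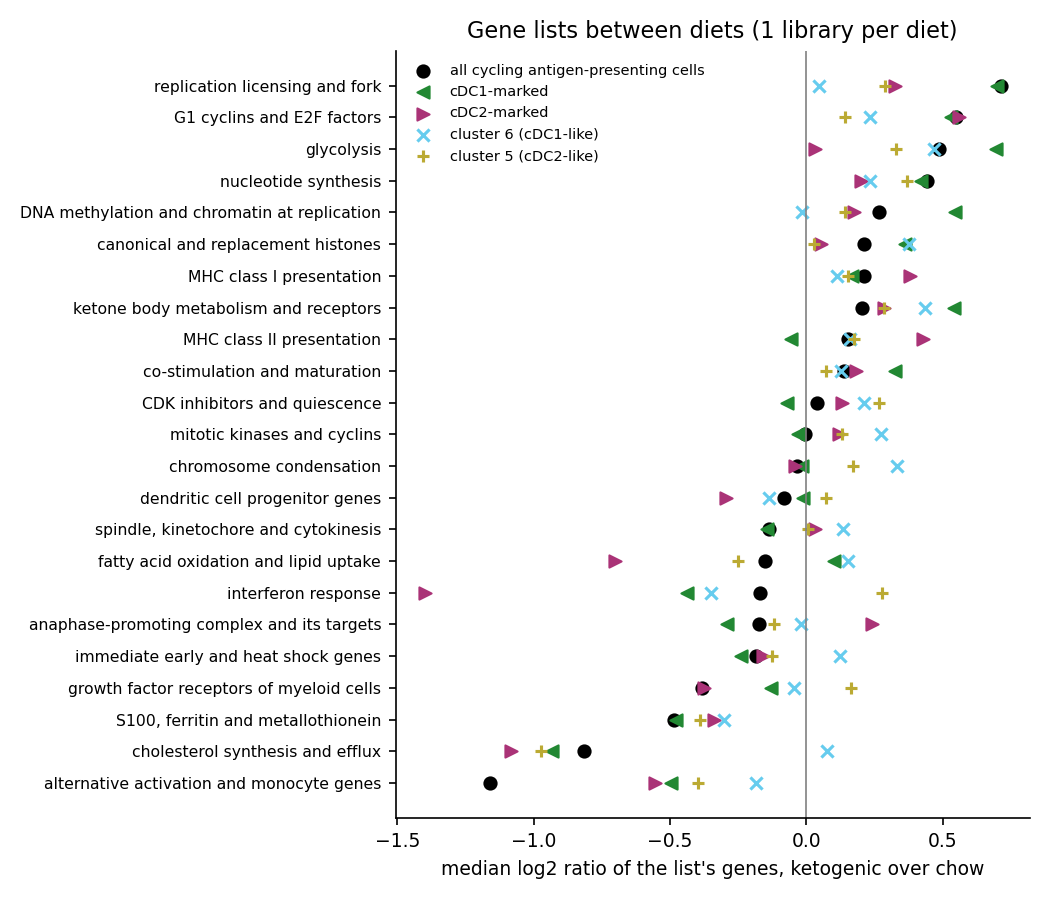
The x axis is the median log2 ratio of each gene list, ketogenic over chow, and the rows are lists; black points are all cycling antigen-presenting cells, triangles the cDC1-marked and cDC2-marked cells, and crosses clusters 6 and 5. Replication licensing and fork sits highest at 0.71, and alternative activation and monocyte genes lowest of the lists drawn at −1.16.

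Markers of other lineages were also unequal. The macrophage list had 0 of 7 genes higher and a median of −2.12, or 1 of 7 and −1.48 without the cells nearest cluster 8. T cell markers had 6 of 6 higher (median 0.97) and B cell markers 3 of 3 (3.43). ILC2 markers went the other way, with 0 of 3 higher (median −1.13), or 1 of 3 and −0.61 without the cells nearest cluster 8. The B cell UMIs lay almost all in the 2 B cell-marked ketogenic cells (72 and 67 UMIs). T cell markers were also higher in cluster 6 (9 of 9, median 1.80) and cluster 5 (11 of 11, 2.02). At least 3 UMIs of T cell markers were found in 10 of 99 chow cells (at most 12 UMIs in a cell) and in 14 of 61 ketogenic cells (at most 54), and at least 3 UMIs of macrophage markers in 67 and 32 cells. Mast cell and basophil markers had 0 UMIs in the cells described here in either library. Ambient RNA, doublets and the cells' own expression cannot be told apart for these markers.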

How the data were processed

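Counts of UMIs per gene and cell in 2 libraries, as deposited, were used with the deposited cluster table; the reads were handled with Cell Ranger and Seurat on mm10, per the submitters' processing notes, which give no versions. The tables held 28692 genes, and 98.8% of their identifiers were found in GENCODE M21, from which coordinates were taken. Promoter sequences came from RefSeq (GRCm38.p6). From these files UMIs were summed over the cells of a library and divided by their total UMIs (CPM); log2 ratios are ketogenic over chow with 0.5 added to each count. Genes needed 100 UMIs over both libraries, list genes 20, and 2-fold in CPM counted as a difference. With 1 library per diet no test was run. Shares carry exact Clopper-Pearson intervals and ratios exact conditional intervals, at 95% confidence; a cell thinned for comparison kept 2000 UMIs in 1 seeded draw, and 487 cells were under that depth. Named genes were the 10 highest and 10 lowest of each comparison, leaving out mitochondrial, immunoglobulin and T cell receptor genes, Cst3 and H2-Aa, plus list members with the most UMIs or past 2-fold. In the comparisons with other cells, genes were ranked by the smaller in size of the 2 libraries' log2 ratios. The cells and gene lists were chosen with earlier results of these data known. Marker classes and assignment to the nearest cluster were chosen after the data were seen, as was leaving out cells with T or B cell markers, top cells or cells nearest cluster 8. Alternatives were other thresholds, thinning, denominators, scalings and free RNA subtraction. The scripts were tested on simulated data. Python 3.11.15, NumPy 2.4.6, SciPy 1.17.1, pandas 2.3.3 and matplotlib 3.10.9 were used.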

Additional observations from a re-analysis of the deposited data

Results flagged for a closer look

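Among the 142 cells left out of the deposited cluster table (87 chow, 55 ketogenic), 4 chow cells and 0 ketogenic cells held at least 50 UMIs of Cst3 plus H2-Aa and at least 2 UMIs of Mki67, Top2a and Birc5. These cells enter no comparison above, and their cluster is not known.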

How the results depend on the processing

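The share of cycling cells among antigen-presenting cells changed direction with the denominator: its ratio, ketogenic over chow, was 1.23 with clusters 3 and 8 in it, 0.606 over clusters 5, 6 and 12 and 0.597 over clusters 5 and 6. With clusters 3 and 8 in the denominator and cycling cells counted by Mki67, Top2a and Birc5 after thinning, the ratio was 1.01. The number of genes past 2-fold was 70 at 100 UMIs, 181 at 50 UMIs (58 higher, 123 lower), 30 at 200 UMIs and 38 without the cells nearest cluster 8 (16 higher, 22 lower); it was 51 without cells with T or B cell markers (7 higher, 44 lower) and 53 with each gene's top cell left out. Of the 20 named genes, 6 were again named at 50 UMIs, 8 at 200, 12 without the cells nearest cluster 8 and 8 without cells with T or B cell markers; none of the 20 changed sign in the alternatives that measured it. Subtracting an assumed 10% of the summed UMIs as free RNA moved Ly6c2 from a log2 ratio of 1.5 to 5.14 and Ccl5 from 1.15 to 3.81. Counts below 0 were set to 0 there, so ratios this large can rest on few chow UMIs left after the subtraction. Mt2 moved from −2.74 to −4.53 without cells with T or B cell markers, and Lyz1 from −2.16 to −1.40 by the mean over cells. The share of the cells among all clustered cells ran from 0.429 to 0.570 as a ratio over 8 alternatives, the cDC1-marked share from 0.964 (without the cells nearest cluster 8, below 1 where the main value was 1.07) to 1.19 and the G2/M-side share from 0.764 to 0.811. The alternative that leaves out cells with at least 3 UMIs of T, B, plasma, NK or ILC2 markers left 5 and 2 cells and was not computed. No paired analysis was possible because each diet has 1 library. Depth limits genes under 20 UMIs, shares of few cells, and any statement about differences between mice.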
